A study of Mus musculus with 4 samples.

Results

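Eos, encoded by Ikzf4, and Helios, encoded by Ikzf2, are DNA-binding zinc finger proteins of the Ikaros family, made in regulatory T (Treg) cells, a CD4+CD25+ population that keeps other immune cells in check. The genes examined here encode 7 receptors on the T cell surface, Cd28, Icos, Ctla4, Pdcd1, Cd2, Cd5 and Cd69, out of 21887 protein-coding genes of the mouse annotation GRCm38.p6. A peak was counted for a gene when its summit, the base of highest signal, lay inside the gene or had its nearest protein-coding gene end, within 100 kb, at that gene. By this rule 8 of 1106 anti-Eos peaks and 1 of 469 anti-Helios peaks belonged to the 7 genes.

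The peaks come from chromatin immunoprecipitation with sequencing, in which an antibody pulls down 1 protein together with the DNA fixed to it. Treg cells were purified from mouse spleen with a CD4+CD25+ isolation kit and fixed with formaldehyde before immunoprecipitation with the anti-Eos antibody 18H2 or the anti-Helios antibody D8W4X. The series has 4 libraries, 1 for each antibody in Eos KO cells (Eos-flox x Foxp3-Cre, in which Cre is driven from the Foxp3 gene of Treg cells) and 1 for each antibody in WT cells. The 2 WT libraries were used here, and the 2 Eos KO libraries were not analysed here. Strain, age and whether animals were pooled are not given in the labels.

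T cells read antigen through the T cell receptor, and surface receptors of these families set how strongly that signal is acted on. CD28 and ICOS are costimulatory receptors, CTLA-4 and PD-1 are inhibitory receptors of the same family, CD2 is an adhesion and costimulatory receptor, CD5 dampens receptor signalling, and CD69 appears early on activated cells and holds them in tissue by opposing the egress receptor S1PR1. Treg cells carry CTLA-4 at high levels and use it to remove the CD28 ligands CD80 and CD86 from antigen-presenting cells.

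There was 1 library per group, so there was no replicate error, and every value describes 1 library. The fold enrichment is the authors' own value per peak, over a control library whose identity the sources used here do not give, and it served to rank peaks within their own list. If the Eos KO library of the same antibody served as the control, an anti-Helios peak would mark a difference between genotypes and not Helios binding as such. The median fold was 7.31 in the anti-Eos list and 7.66 in the anti-Helios list. Fragment counts recovered from the fold and p-value of each peak had medians of 14 and 18, so a peak's fold is imprecise. Intervals given with a fold below are exact Poisson 95% intervals of the fragment count, with the background held fixed, and cover counting error alone. At the genome-wide background a place needed 7 fragments to reach the smallest listed anti-Eos p-value and 9 to reach the smallest listed anti-Helios p-value. Weaker signal is absent from both lists. Peak lists do not measure RNA. Among 6 Treg marker genes, Foxp3 and Ctla4 held no summit of either antibody. Anti-Eos summits lay at 4 and an anti-Helios summit at 1, against 4.38% and 2.12% of all protein-coding genes. The 4 were Il2ra, Tnfrsf18, Ikzf4 and Ikzf2, the last with a fold of 4.50, below the list median. Ikzf4 and Ikzf2 encode the immunoprecipitated proteins themselves. Il2ra and Tnfrsf18 are counted again in the lists of surface proteins below. Of 24 markers of B cells, myeloid cells and CD8 or NK cells, 0 held an anti-Eos summit and 1 held an anti-Helios summit, at Cebpb, 84.8 kb from the gene. The counts for these 24 markers, unlike those for the Treg markers, are close to what the same shares of all genes give. They say nothing of the presence of other cells. All marker lists were chosen with earlier results of these data known.

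Anti-Eos summits were found at 6 of the 7 receptor genes, Ctla4 being the exception, and an anti-Helios summit at 1, Pdcd1. Across all protein-coding genes the same rule gave an anti-Eos summit at 4.38% and an anti-Helios summit at 2.12%, and summits of both antibodies at 1.54%. The 7 genes were chosen with earlier results of these data known, so these shares are not an independent test of enrichment. Cd2 and Cd69 held 2 anti-Eos summits each, and 0.649% of protein-coding genes held 2 or more. The genes made up 0.723% of all anti-Eos summits (exact binomial 95% interval 0.313 to 1.42%) and 0.213% of all anti-Helios summits (0.00540 to 1.18%), and these intervals overlap. Gene by gene, Fisher's exact test (two-sided) on the summit counts of the 2 libraries gave p = 0.507 for Pdcd1 and p = 1 for each of the other 5 genes with a summit. After Benjamini-Hochberg adjustment over 1084 genes with a summit, Fisher's exact test called 0 genes (0.0%), and 1 gene had an unadjusted p below 0.05. With 1 or 2 summits in the anti-Eos list and none in the other the exact test gives p = 1 here, so a difference at a single gene was not detectable with so few summits per gene. The lists also share places, and the test treats them as independent.

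**Figure D1:**
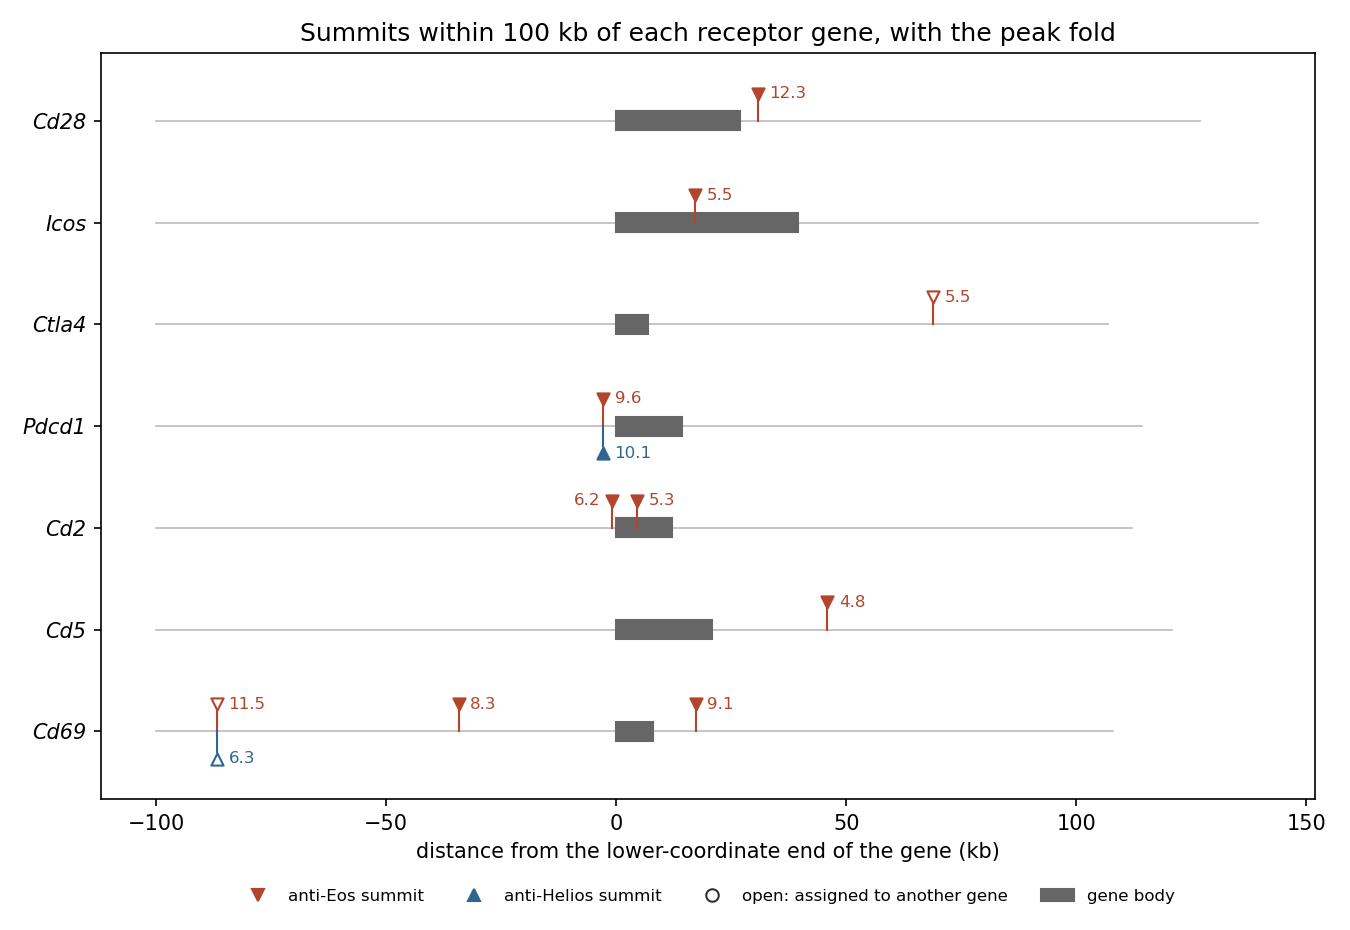
Summits of anti-Eos (red, above the line) and anti-Helios (blue, below the line) within 100 kb of each of the 7 receptor genes, against the distance in kb from the gene's lower-coordinate end. Numbers are the authors' fold per peak, grey boxes are gene bodies, and open symbols are summits assigned to another gene. Pdcd1 has a summit of each antibody, the other assigned summits are anti-Eos, and Ctla4 has none of its own.

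Most of these summits lay away from gene ends, as did most summits of the whole anti-Eos list. Of the 8 anti-Eos summits, 2 were inside a receptor gene, at Icos and Cd2, and 6 were outside. In the whole anti-Eos list 44.5% of summits lay outside protein-coding genes. A single summit, at Cd2, lay within 1 kb of a gene end, whereas 39.5% of all anti-Eos summits did so. The median distance to the nearest protein-coding gene end was 6890 bp for the 8 summits and 3174 bp for the whole list. These differences rest on 8 summits and were not tested. A gene end says nothing of direction, so start sites were taken from the RefSeq promoter table of GRCm38.p6, which holds Ctla4, Pdcd1 and Cd5 of the 7 genes. No summit of either antibody lay in the promoter window of these 3 genes, which runs from 250 bp before to 50 bp after the start site. The share of all promoter windows that hold a summit is not given here, so this does not set the 3 genes apart.

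The promoter windows of Pdcd1, Ctla4 and Cd5, genes of receptors that restrain T cell signalling and had no summit there, are printed with 3 windows that did hold an anti-Eos summit, at the CD69-related lectin gene Clec2d, at Tnfrsf18, which encodes the costimulatory receptor GITR, and at Cd96, which encodes an inhibitory receptor of T and NK cells. Sequences are from RefSeq (GRCm38.p6), read 5′ to 3′ along the gene's own strand, and end 50 bp after the start site. Capitals mark matches on either strand to GGGAA or TGGGAA (Ikaros family core, the longer motif containing the shorter), CCGGAA (ETS), TGTGGT (RUNX) and TGACTCA (AP-1).
Pdcd1, chr1:94052504-94052803, minus strand: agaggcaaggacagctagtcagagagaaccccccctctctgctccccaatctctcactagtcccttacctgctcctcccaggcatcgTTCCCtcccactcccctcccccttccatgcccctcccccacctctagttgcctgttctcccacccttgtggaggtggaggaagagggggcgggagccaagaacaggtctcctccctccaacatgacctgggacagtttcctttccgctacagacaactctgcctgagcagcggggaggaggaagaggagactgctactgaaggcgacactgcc
Ctla4, chr1:60908775-60909074, plus strand: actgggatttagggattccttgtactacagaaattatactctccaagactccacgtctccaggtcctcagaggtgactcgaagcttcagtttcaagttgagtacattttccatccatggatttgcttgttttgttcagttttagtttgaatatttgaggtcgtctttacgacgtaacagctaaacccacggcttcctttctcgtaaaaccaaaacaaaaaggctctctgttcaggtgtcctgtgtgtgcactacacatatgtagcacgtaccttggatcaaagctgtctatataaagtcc
Cd5, chr19:10738925-10739224, minus strand: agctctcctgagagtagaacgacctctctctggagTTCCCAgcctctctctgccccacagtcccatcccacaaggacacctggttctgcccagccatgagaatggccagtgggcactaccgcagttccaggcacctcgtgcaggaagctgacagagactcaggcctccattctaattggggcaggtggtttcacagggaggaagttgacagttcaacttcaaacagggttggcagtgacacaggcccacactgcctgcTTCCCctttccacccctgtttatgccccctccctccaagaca
Clec2d, chr6:129180365-129180664, plus strand: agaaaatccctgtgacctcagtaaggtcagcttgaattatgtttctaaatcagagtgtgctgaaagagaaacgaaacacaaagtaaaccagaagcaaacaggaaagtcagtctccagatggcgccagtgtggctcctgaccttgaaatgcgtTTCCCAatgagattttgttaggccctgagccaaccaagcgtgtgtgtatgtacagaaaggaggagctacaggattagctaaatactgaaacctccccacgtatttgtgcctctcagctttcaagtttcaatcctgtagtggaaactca
Tnfrsf18, chr4:156026072-156026371, plus strand: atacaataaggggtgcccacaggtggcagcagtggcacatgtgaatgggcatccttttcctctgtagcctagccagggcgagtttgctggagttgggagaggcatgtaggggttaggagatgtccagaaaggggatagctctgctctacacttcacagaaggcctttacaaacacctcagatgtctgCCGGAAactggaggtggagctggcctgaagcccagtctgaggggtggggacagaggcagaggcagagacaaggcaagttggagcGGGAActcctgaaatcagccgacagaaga
Cd96, chr16:46120199-46120498, minus strand: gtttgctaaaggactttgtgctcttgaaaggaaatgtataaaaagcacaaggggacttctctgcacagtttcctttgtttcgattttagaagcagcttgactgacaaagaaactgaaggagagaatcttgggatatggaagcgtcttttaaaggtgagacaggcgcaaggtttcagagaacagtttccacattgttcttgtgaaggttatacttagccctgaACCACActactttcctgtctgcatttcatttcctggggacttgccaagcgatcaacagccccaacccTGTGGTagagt

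Pdcd1 held 1 match to GGGAA and no match to TGGGAA, and Ctla4 held no match to any of these motifs. Cd5 held 2 matches to GGGAA, 1 of them within a match to TGGGAA, which is more than any of the 3 windows with a summit. Clec2d held 1 match to TGGGAA, centred 24 bp from its anti-Eos summit and 32 bp from its anti-Helios summit. Tnfrsf18 held 1 match to GGGAA, 68 bp from its anti-Eos summit, and 1 to CCGGAA. Cd96 held no GGGAA and 2 matches to TGTGGT. The core GGGAA occurs in 62.7% of the 32851 promoter windows of the table, TGGGAA in 25.6%, CCGGAA in 14.9%, TGTGGT in 16.8% and TGACTCA in 5.2%, so single matches of this kind are common. A match is a run of letters, not a measured site.

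Cd28, the principal costimulatory receptor of T cells (chromosome 1, 60746388 to 60773359), carried the peak with the highest fold of the 7 genes. The anti-Eos peak (60777006 to 60777241) had a fold of 12.3 (7.90 to 18.3) from 22 fragments. It ranked 84 of 1106 anti-Eos peaks by fold, and its interval lies above the median of the list. Its summit lay outside the gene, 3833 bp beyond the higher-coordinate end and 1269 bp before the start of the long non-coding RNA gene 2310016D23Rik, which is thus the nearer annotated gene. No anti-Helios peak was listed within 3.75 Mb of this summit. The anti-Helios list holds 469 peaks in all, and how common gaps of this size are, here and at the genes below, was not tested. It belongs to the 276 anti-Eos peaks of highest -log10 q, of which 55.4% overlapped an anti-Helios peak. Of the 797 anti-Eos peaks with no overlapping anti-Helios peak it had the 29th highest fold.

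Icos, an activation-induced costimulatory receptor gene that follows Cd28 and Ctla4 on the same chromosome (60960773 to 61000322), had 1 anti-Eos peak inside the gene. This peak (60977852 to 60977983) had a fold of 5.54 (3.25 to 8.92) from 15 fragments, over the highest local background of the 8 peaks. Its summit lay 17.1 kb from the lower-coordinate end and 22.4 kb from the higher-coordinate end. Its -log10 q of 5.19 placed it in the third of 4 equal classes of the anti-Eos list, in which 15.2% of peaks overlapped an anti-Helios peak, and no anti-Helios peak was listed within 3.55 Mb. The fold of the Icos peak was lower than that of the Cd28 peak, and their counting intervals overlapped between 7.90 and 8.92.

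Ctla4 (60909025 to 60915832), which encodes the inhibitory receptor for the CD28 ligands, had no summit by the rule. The stretch of 254 kb from the lower end of Cd28 to the higher end of Icos held 2 anti-Eos and 0 anti-Helios summits, those at Cd28 and in Icos, 201 kb apart. The summit in Icos lay 62.1 kb beyond the end of Ctla4 and was thus within 100 kb of it, but was counted for Icos. From the Ctla4 start site the nearest anti-Helios summit was 3.62 Mb away.

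Pdcd1, which encodes the inhibitory receptor PD-1 (chromosome 1, 94038305 to 94052553), was the gene at which both antibodies gave a peak. The anti-Eos peak (94035052 to 94035606) had a fold of 9.65 (5.76 to 15.3) from 16 fragments, and the anti-Helios peak (94034984 to 94035556) a fold of 10.1 (6.37 to 15.3) from 20 fragments. The peaks overlapped by 505 bp, with summits 70 bp apart. Both were wide, at 555 bp and 573 bp against list medians of 175 bp and 174 bp, and 1.08% of anti-Eos and 1.49% of anti-Helios peaks were as wide or wider. They ranked 224 of 1106 and 81 of 469 by fold.

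The Pdcd1 peaks were at the far end of the gene from its start. Pdcd1 is read from the minus strand, and the anti-Eos and anti-Helios summits lay 17036 bp and 17106 bp downstream of its start site, which is 2788 bp and 2858 bp beyond the end of the gene. They sat in the 9.97 kb between Pdcd1 and Neu4, a sialidase gene read from the plus strand, and 7183 bp and 7113 bp from the end of Neu4. The place is therefore between the ends of 2 genes that point towards each other, and assignment to Pdcd1 rests on its being the nearer. No further anti-Eos summit was listed within 236 kb of Pdcd1, and the nearest further anti-Helios summit lay 1104 kb away.

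Cd5, which encodes a scavenger-receptor-family protein that dampens T cell receptor signals (chromosome 19, 10718107 to 10739026), had the weakest of the 8 peaks. The anti-Eos peak (10763899 to 10764019) had a fold of 4.81 (2.29 to 9.27) from 7 fragments, the fewest of any anti-Eos peak, and a -log10 q of 2.28 against a minimum of 2.08 in the list. Cd5 is read from the minus strand, so the summit lay upstream, 25034 bp from the start site in the promoter table, inside the long non-coding RNA gene A430093F15Rik. It was 24982 bp from the end of Cd5 and 25331 bp from that of Cd6, which encodes a related receptor. The choice of Cd5 over Cd6 thus turned on 349 bp. No anti-Helios peak was listed within 4.36 Mb.

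Cd2, which encodes a receptor for CD48 in the mouse (chromosome 3, 101275908 to 101287939), had 2 anti-Eos summits 5.43 kb apart. The peak outside the gene (101274972 to 101275099) had its summit 871 bp before the lower-coordinate end, with a fold of 6.17 (3.34 to 10.6) from 11 fragments. The peak inside the gene (101280448 to 101280584) had a fold of 5.32 (3.01 to 8.82) from 13 fragments. Both were below the median fold of the anti-Eos list and in the lowest of the 4 classes by -log10 q, in which 13.7% of peaks overlapped an anti-Helios peak. The nearest anti-Helios summit was 316 kb from the gene.

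Cd69, an early activation marker of the C-type lectin family (chromosome 6, 129267324 to 129275375), had an anti-Eos summit on either side of the gene, 51.5 kb apart. The peak on the higher-coordinate side (129284514 to 129284692) had a fold of 9.09 (5.42 to 14.4) from 16 fragments, with its summit 9221 bp from Cd69 and 37.6 kb from Clec2m. The peak on the lower-coordinate side (129232992 to 129233130) had a fold of 8.25 (4.67 to 13.7) from 13 fragments, with its summit 34.3 kb from Cd69 and inside the long non-coding RNA gene 2310001H17Rik. Neither overlapped an anti-Helios peak.

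Farther along the same flank lay a place that both antibodies recovered. The anti-Eos peak (129180425 to 129180677) had a fold of 11.5 (7.77 to 16.4) from 28 fragments, and the anti-Helios peak (129180454 to 129180621) a fold of 6.30 (3.98 to 9.55) from 20 fragments. Their summits lay 120 bp and 64 bp upstream of the start site of Clec2d, which encodes a lectin ligand of NK cell receptors, within its promoter window. They were 86.8 kb from Cd69, inside the 100 kb limit, but counted for Clec2d because its end was nearer. The Clec2d and Pdcd1 peaks were the 2 anti-Helios peaks listed within 100 kb of any of the 7 genes.

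**Figure D2:**
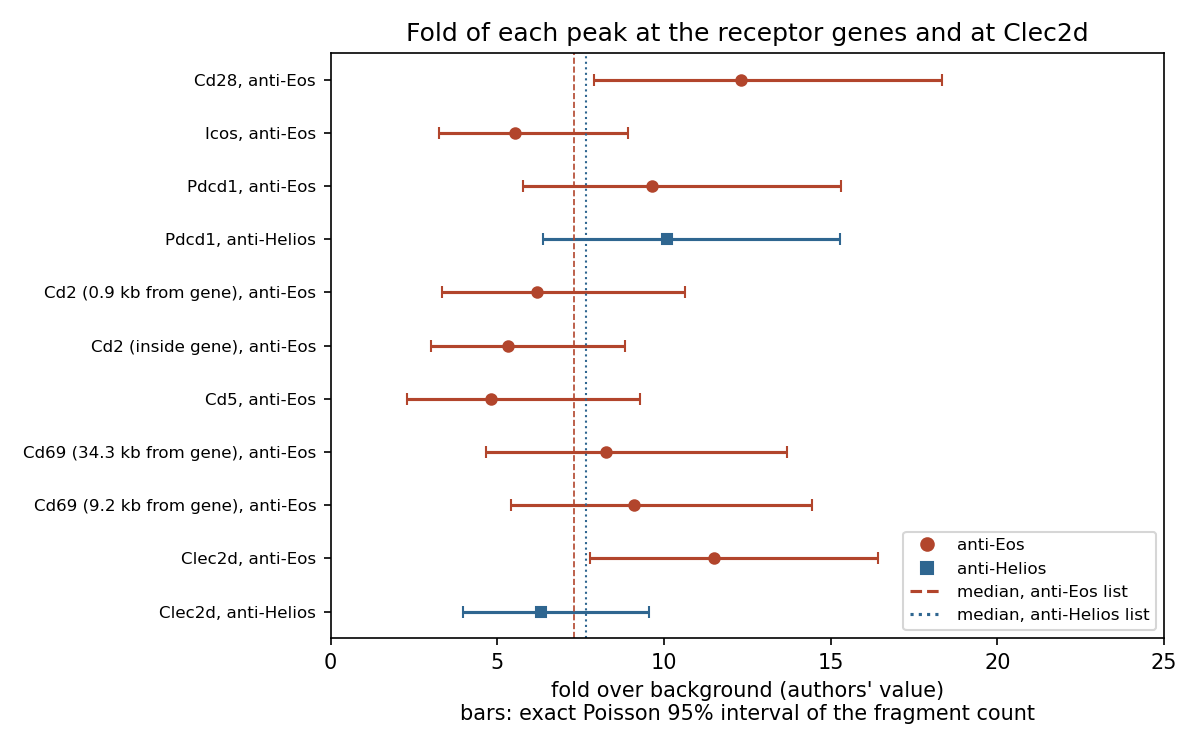
Authors' fold of each anti-Eos (red circles) and anti-Helios (blue squares) peak at the receptor genes and at the Clec2d start site, with exact Poisson 95% intervals of the fragment count. The dashed and dotted lines are the medians of the anti-Eos list (7.31) and the anti-Helios list (7.66). The anti-Eos peaks at Cd28 and Clec2d have intervals above their list's median, and those of the other anti-Eos peaks include it.

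Within the 8 anti-Eos peaks, folds ran from 4.81 to 12.3 with a median of 7.21, and 4 of the 8 were above the median of the whole list. The 4 were the peaks at Cd28 and Pdcd1 and both at Cd69. Fragment counts ran from 7 to 22. Of the 28 pairs of peaks, 28 had overlapping counting intervals, which does not show that their folds are alike, and the differences between them were not tested. None of the 8 had a high local background, taken as more than 3 control fragments. Of the 8 peaks, 1 overlapped an anti-Helios peak, against 27.9% of all anti-Eos peaks. The single anti-Helios peak overlapped an anti-Eos peak, as did 65.9% of the anti-Helios list.

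**Figure D3:**
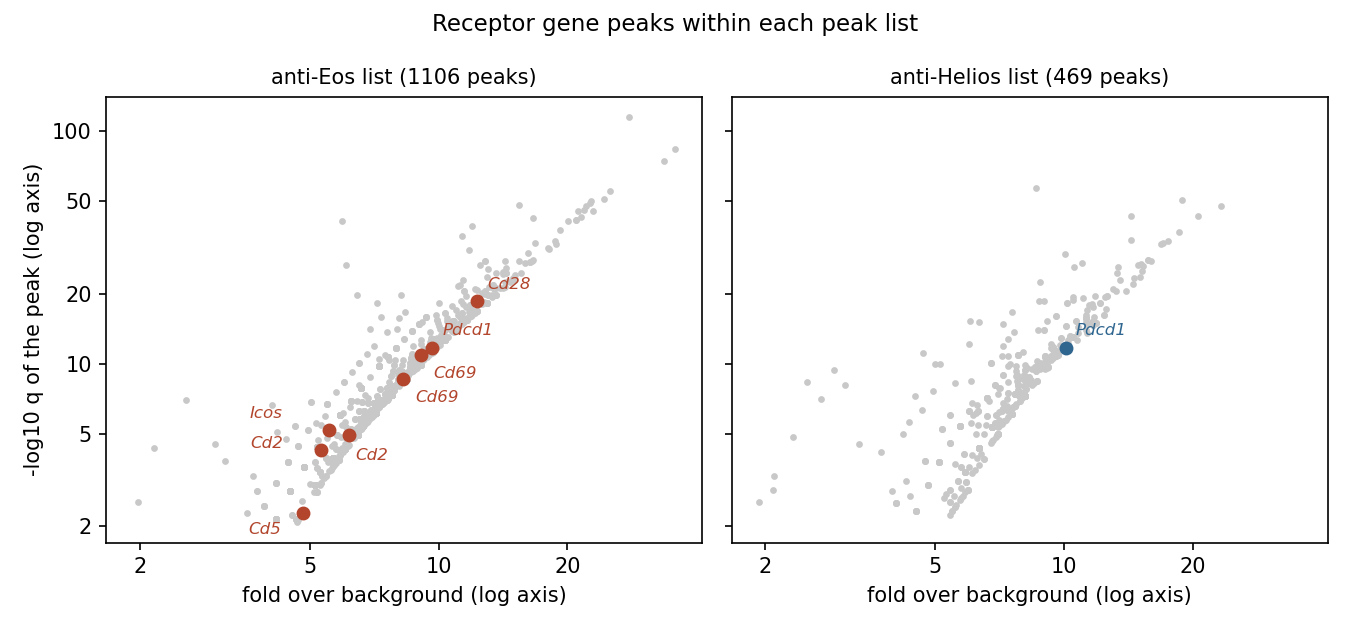
Fold against -log10 q, both on log axes, for all 1106 anti-Eos peaks (left) and all 469 anti-Helios peaks (right) in grey, with the peaks at the receptor genes coloured and named. The anti-Eos peaks run from Cd5, near the lower edge of the list, to Cd28, and the anti-Helios list holds Pdcd1.

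The counts depended on how many peaks were admitted and on how summits were assigned. With 469 anti-Eos peaks, ranked by -log10 q and as many as in the anti-Helios list, 4 summits at 3 of the 7 genes were left, at Cd28, Pdcd1 and Cd69. The 4.38% of all protein-coding genes refers to the full list, and the share under this shorter list is not given here. When a summit had to lie inside the gene, 2 anti-Eos summits and 0 anti-Helios summits remained.

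Summits also lay at other receptors of these families. Of 41 genes in 4 further lists of surface proteins, 11 had an anti-Eos summit (26.8%, against 4.38% of all protein-coding genes) and 3 an anti-Helios summit (7.32%, against 2.12%). These lists were also chosen with earlier results of these data known, so the shares do not test enrichment independently. The 3 genes with both were Tnfrsf18, Vsir and Itgal. Their anti-Helios peaks had a -log10 q of 7.45 at Tnfrsf18, 2.53 at Vsir and 3.78 at Itgal. The minimum of the anti-Helios list was 2.24. Among other costimulatory receptors, 4 of 10 had an anti-Eos and 1 of 10 an anti-Helios summit. The highest fold was at Cd27, a receptor of the TNF receptor superfamily, where an anti-Eos peak 4682 bp from the gene had a fold of 13.0 (8.07 to 19.9). Tnfrsf18 had an anti-Eos peak 45 bp upstream of its start site (8.51, 4.91 to 13.9) and a shared peak farther upstream (anti-Eos 8.65, anti-Helios 7.66). Tnfrsf1b, which encodes a TNF receptor of Treg cells, had 2 anti-Eos peaks (8.23 and 5.15), and Tnfrsf14, which encodes the BTLA ligand HVEM, had 1 (6.17).

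Of 12 other inhibitory receptor genes, 2 had an anti-Eos and 1 an anti-Helios summit. Cd96 had an anti-Eos summit 26 bp downstream of its start site (6.69, 3.71 to 11.3). Vsir, which encodes the checkpoint protein VISTA, had overlapping peaks inside the gene (anti-Eos 6.50, anti-Helios 4.05) at a place that also lies within Cdh23. In the CD2, SLAM and CD5 families 2 of 9 genes had an anti-Eos summit, among them Slamf1 (5.71), and 0 of 9 an anti-Helios summit. Other activation and adhesion proteins gave 3 and 1 of 10, with anti-Eos peaks in Il2ra, the interleukin-2 receptor alpha chain gene (7.27), and at Itgal, an integrin gene (anti-Eos 6.58, anti-Helios 5.11). Ligand genes gave 2 and 0 of 10, with anti-Eos peaks inside Cd86 (8.43) and Pdcd1lg2, which encodes a PD-1 ligand (6.57).

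The signalling proteins that act downstream of these receptors were found in both lists. Of 30 genes, 11 had an anti-Eos and 9 an anti-Helios summit, and 5 had both, against 4.38%, 2.12% and 1.54% of all protein-coding genes. This list too was chosen with earlier results of these data known. Among the genes with both were Csk, Grb2, Pik3r1 and Prkcq. Csk, whose product inhibits the kinase Lck, had an overlapping pair inside the gene with folds of 6.91 (4.79 to 9.67) for anti-Eos and 10.5 (7.31 to 14.6) for anti-Helios, the anti-Eos peak having a high local background. The adaptor gene Grb2, which couples CD28 to further signals, had an overlapping pair outside the gene (anti-Eos 6.58, anti-Helios 9.90). Pik3r1, the regulatory subunit of the phosphatidylinositol kinase recruited by CD28 and ICOS, had one just inside the gene (anti-Eos 6.17, anti-Helios 9.96), with summits 260 bp and 99 bp downstream of 1 of its 2 start sites in the promoter table. Prkcq, a kinase of the CD28 pathway, had one inside the gene (anti-Eos 6.93, anti-Helios 4.51). Its anti-Helios peak had a -log10 q of 2.33, near the list minimum of 2.24.

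Anti-Eos summits without an anti-Helios summit lay at Ptpn6 (6.57) and Ptpn11 (8.02), phosphatase genes whose products are recruited by inhibitory receptors, and at the phosphatidylinositol phosphatase gene Inpp5d (6.70). The Ptpn11 summit lay outside the gene, 23.4 kb from its nearer end. Pik3ip1 (8.41) and Malt1 (6.84) also had anti-Eos summits alone. This was common, since of all 958 genes with an anti-Eos summit 621 had no anti-Helios summit. Of all 463 genes with an anti-Helios summit, 126 had no anti-Eos summit. Anti-Helios summits without an anti-Eos summit included those of Pik3cd (9.62 and 8.53), the kinase catalytic subunit of lymphocytes, Cbl (7.38), a ubiquitin ligase gene, and Pstpip1 (8.28), whose product binds CD2. Over the 81 genes of all 6 further lists, 24 had an anti-Eos and 12 an anti-Helios summit. With the anti-Eos list shortened to 469 peaks the counts were 9 and 12, so the order of the antibodies turned with the length of the list. The shortened list ended at a -log10 q of 8.54, whereas the anti-Helios list reached down to 2.24. The share of all protein-coding genes under the shortened list is not given here. Whether the balance of the antibodies differed between receptor genes and signalling genes was not tested.

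**Figure D4:**
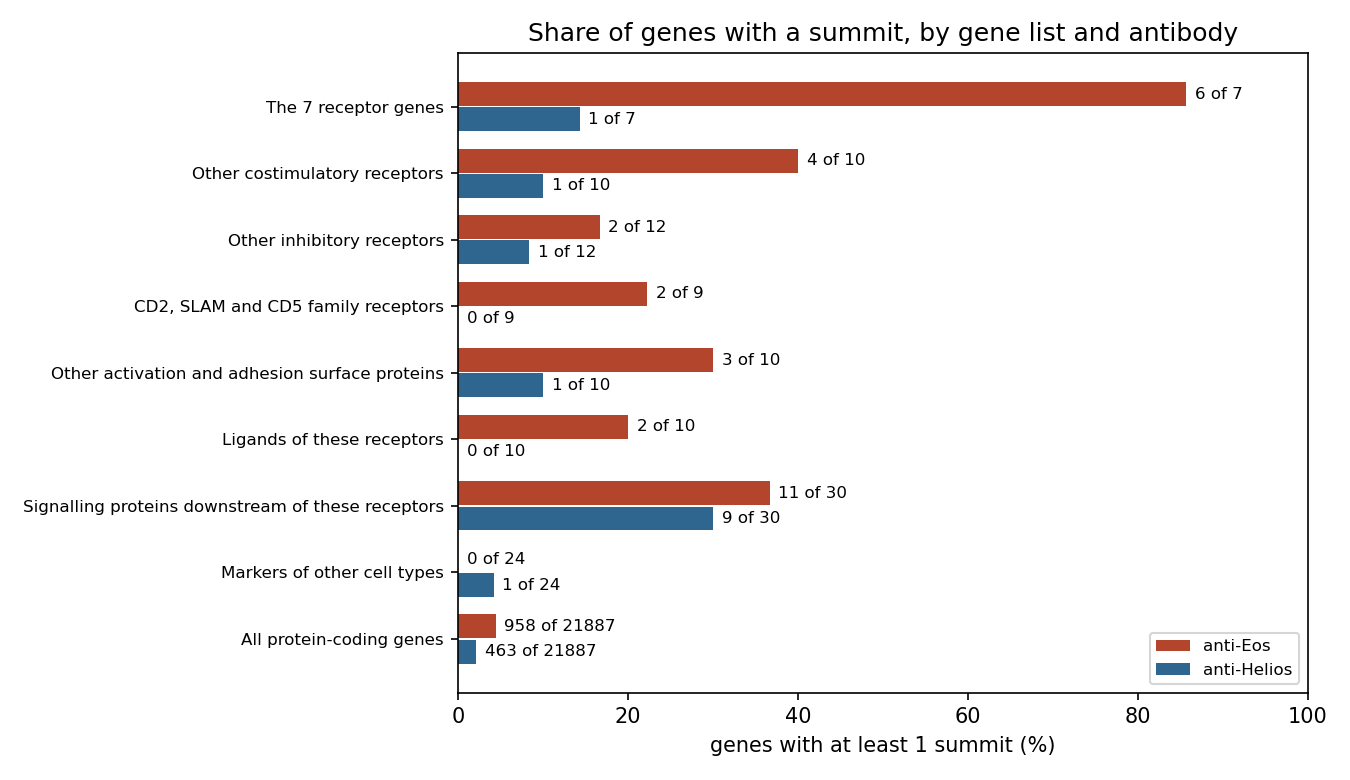
Percentage of genes with at least 1 anti-Eos (red) or anti-Helios (blue) summit in each gene list, with the counts written beside the bars. Anti-Eos summits stand at 6 and anti-Helios summits at 1 of the 7 receptor genes, the downstream signalling genes at 11 and 9 of 30, and all protein-coding genes at 958 and 463 of 21887. The gene lists were chosen with earlier results of these data known.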

How the data were processed

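The deposited data used here are 2 peak lists, 1 per antibody, from WT Treg cells. Per the submitters' processing notes the authors used cutadapt 4.4, SAMtools 1.17, deepTools 3.5.1, Picard and BWA 0.7.1, and the build was mm10 (GRCm38.p6). The sources used here do not say how peaks were called or against which control library. Each deposited line holds the authors' fold enrichment (a linear ratio over background), -log10 p-value, -log10 q-value, an integer score (10 times the -log10 q-value, rounded down), and the summit offset from the peak start. There is 1 list per library, and no pooling is stated.

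Fragment counts and local backgrounds were solved from the deposited fold and p-value, as scaled fragments plus 1 over background plus 1 and an upper Poisson tail, which gave both values for 100% of peaks within a relative tolerance of 0.0001. Fragments were scaled by 1 for anti-Eos and 0.895 for anti-Helios. The formula itself is inferred, not stated by a source.

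Genes and their ends came from the RefSeq table of GRCm38.p6, and 3 of the 7 genes matched its promoter table. Cd28, Icos, Cd2 and Cd69 have no entry there. Overlap meant at least 1 bp in common. Fisher's exact tests were adjusted by Benjamini-Hochberg with a threshold of 0.05, after a check on simulated data (Python 3.11.15, scipy 1.17.1). The simulated differing genes held far more summits than the 7 genes, so the check does not cover counts this small. The 7 genes and all lists were chosen with earlier results of these data known. Named genes were the 7, the 25 of 28 other listed genes with the highest fold in either list, and nearest neighbours, and a few of these are not reported here. Alternatives changed the peak threshold, list length, assignment and overlap. Peak sequences were not used here, since no genome was given.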

Additional observations from a re-analysis of the deposited data

How the results depend on the processing

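With a -log10 q of at least 5, 5 anti-Eos summits were left at the 7 genes, and Cd2 and Cd5 had none. Of the 81 other receptor and pathway genes, 19 had an anti-Eos and 8 an anti-Helios summit at this threshold. With the anti-Eos list shortened to the 469 peaks of highest -log10 q, down to 8.54, there were 4 summits at 3 genes. Among the 81 other receptor and pathway genes 9 then had an anti-Eos and 12 an anti-Helios summit. With the full lists these were 24 and 12, so that the order of the antibodies turned. The anti-Helios list, which reached down to 2.24, was not cut. With the summit required inside the gene there were 2 anti-Eos summits at 2 genes, and for anti-Helios 0 summits at 0 genes and 0 overlapping peaks. With the nearest end taken over genes of every biotype there were 5 anti-Eos summits, and those at Cd28 and Cd5 and 1 of those at Cd69 went to long non-coding RNA genes. Of the 51 alternative values of 7 summary counts, 41 stayed within 1.5 times. This tally does not measure stability. Leaving out high-background peaks could not change the counts at the 7 genes, since none of their peaks had a high background. The limit of 1.5 times also passes a fall from 6 to 4 genes with an anti-Eos summit. The overlap of 1 anti-Eos peak, at Pdcd1, held under a reciprocal overlap of at least 50%, summits within 100 bp and peaks within 1 kb. The gene-by-gene Fisher's exact test is left out of these counts, since with so few summits per gene its 0 calls say nothing of stability. The 8 anti-Eos peaks held 7 to 22 fragments, which limits the precision of their folds, and what deeper libraries would list was not tested. No paired analysis was possible because each group has 1 library.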

Other observations

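The gene with the smallest unadjusted p in the gene-by-gene comparison was Sfi1 on chromosome 11, which encodes a centrosome protein and was named after its values were seen. It held 4 anti-Eos and 8 anti-Helios summits (Fisher's exact test, two-sided p = 0.0088, Benjamini-Hochberg adjusted p = 1). The folds and local backgrounds of these peaks are not given here.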
